A study of Mus musculus with 3 samples.

Results

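In mouse islets taken 1 week after inactivation of Taf4, 447 of 2295 cell barcodes carried at least 15% of their UMIs on transcripts encoded by the mitochondrial genome (mt- genes). A UMI is a random tag that marks 1 captured RNA molecule. These high-mt barcodes made up 19.5% (17.9 to 21.2) of the library and 447 of the 25524 barcodes of all 3 libraries. They were compared with the 784 barcodes of the same library that had under 15% mt- UMIs and at least 8000 UMIs in total, called deep barcodes here. The question was which transcripts the high-mt barcodes had kept and which they had lost, relative to all their other non-mitochondrial RNA, and whether this was alike in barcodes with insulin, glucagon or somatostatin transcripts. Both groups were selected on measured values, the mt- share and the total UMIs, and Malat1, Mlxipl, Ogt and Son were known as leading genes beforehand, so all values are a description of 1 library and no test was made. Numbers in parentheses after a share are 95% exact binomial intervals, after a level exact Poisson intervals and after a log2 ratio exact conditional intervals. All of them cover counting error only.

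Mutant mice of the C57/Bl6 strain carried floxed Taf4 alleles and the tamoxifen-inducible Ins1::Cre-ERT2 driver, which acts in cells that use the Ins1 promoter, the beta cells of the islet. Each mutant library (1 week and 5 weeks after inactivation) came from 300 islets of 2 male mice, and the WT library from 300 islets of 1 male mouse, for which the labels name neither the driver nor tamoxifen. Islet cells were dissociated, sorted by flow cytometry for live cells and captured in droplets with the 10X Genomics 3′ assay. Since a condition is 1 library, how much animals vary cannot be seen.

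Taf4, which encodes a subunit of the general transcription factor TFIID (on chromosome 2, positions 179912146 to 179976646 of GRCm38.p6), had a level of 8.47 per 1000000 UMIs (7.33 to 9.75) in the 1-week library, 5.24 (4.27 to 6.36) in WT and 4.06 (3.46 to 4.74) at 5 weeks. The sources used here do not give the deleted exons, so these 3′ tags are no check of the deletion. The 1-week table held 23131247 UMIs with a median of 2759 per barcode. Libraries shared between 2 and 33 barcode sequences. The WT and 5-week tables held no barcode with 15% or more mt- UMIs, with a highest value of 14.9% in each, so the high-mt barcodes could not be set beside barcodes of another condition. Limits of 200 to 1500 detected genes and under 15% mt- UMIs would leave 0 of the 447 high-mt and 8 of the 784 deep barcodes. Of all 2295 barcodes they would leave 1004. The study's methods state such limits beside the joint analysis of the WT and later mutant libraries. The cell number that the study gives for the library described here equals the number of its barcodes. Its analysis thus appears to have included the high-mt barcodes.

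Most messenger RNA of a cell lies in the cytoplasm, where ribosomes translate it and where mitochondria hold their own transcripts inside a double membrane. Some RNAs stay in the nucleus instead: long noncoding RNAs such as Malat1, which gathers at nuclear speckles, and messenger RNAs that are retained with introns still to be spliced, a mode of control known for Ogt and for CLK kinases and SR proteins. Barcodes with a high mt- share are often filtered out before analysis.

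The high-mt barcodes held as much mitochondrial RNA as the deep barcodes and about as much Malat1, but far less RNA of most other genes. Total UMIs of the high-mt barcodes ran from 419 to 12829 with a median of 2987, and those of the deep barcodes from 8011 to 94086 with a median of 23732. UMIs of mt- genes had a median of 779 per high-mt barcode (range 82 to 3583) and of 646 per deep barcode (range 19 to 4390), and these ranges overlapped. Non-mitochondrial UMIs had a median of 2099 (range 335 to 10149) in high-mt and 22857 (range 7313 to 91551) in deep barcodes, and a median of 1006 against 4715.5 non-mitochondrial genes was detected. The mt- share itself, which chose the barcodes, had a median of 28.0% in the high-mt and 2.74% in the deep barcodes.

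**Figure D1:**
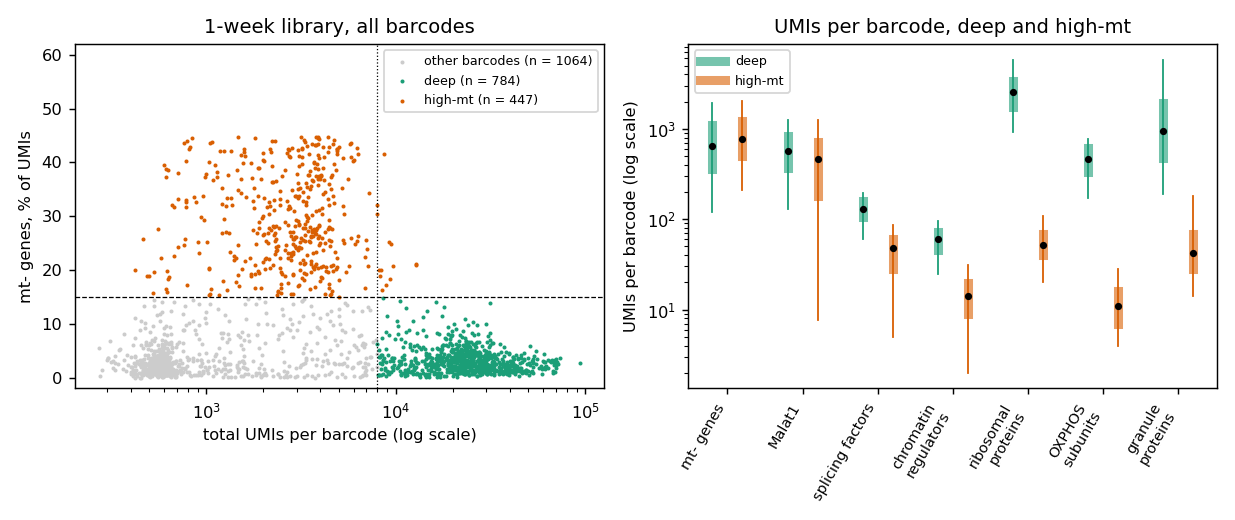
Left, total UMIs (log scale) against the percent of UMIs on mt- genes for every barcode of the 1-week library, with dashed lines at 15% and 8000 UMIs. Right, UMIs per barcode (log scale) of mt- genes, Malat1 and 5 gene lists in deep and high-mt barcodes, with the median as a dot, the 25th to 75th percentile as a bar and the 5th to 95th percentile as a line. The mt- medians (646 and 779 UMIs) and the Malat1 medians (566.5 and 467 UMIs) lie close together, while the other lists lie lower in high-mt barcodes.

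The 15% limit fell within a thin stretch of the distribution: 13 barcodes had a share from 14% to under 15%, and 13 had a share from 15% to under 16%. The nearest barcode inside the limit, at 15.1% and 5026 UMIs, carried 22.4% of its non-mitochondrial UMIs on Malat1. The nearest one outside, at 14.9% and 8591 UMIs, counted as deep and carried 30.1%. Over the 5 nearest barcodes on each side, the Malat1 share ran from 5.37% to 33.1% inside and from 0.220% to 30.1% outside.

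Mitochondrial transcripts were present in similar, though not equal, proportions in both groups. Of all UMIs on the 13 mt- genes, mt-Co1, a subunit of cytochrome c oxidase, made up 27.8% in high-mt and 32.0% in deep barcodes, mt-Co3, another subunit of that enzyme, 18.9% and 17.3%, and mt-Atp6, a subunit of ATP synthase, 11.8% and 10.2%. Within the high-mt barcodes Malat1 was lower where the mt- share was higher. The median Malat1 UMIs per barcode were 551 at an mt- share of 15 to 20% and 363 at 40 to 45%. The median Malat1 share of non-mitochondrial UMIs was 24.2% and 19.6% in these bands, that of cytosolic ribosomal protein transcripts 2.51% and 2.69% and that of granule protein transcripts 2.15% and 3.07%. In deep barcodes with 10 to 15% mt- UMIs (n = 15) these 3 shares were 4.16%, 11.4% and 7.74%.

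Barcodes were sorted by the hormone transcript that exceeded its background: Ins2 (insulin, beta cells), Gcg (glucagon, alpha cells) or Sst (somatostatin, delta cells). The background was the 95th percentile of a hormone's UMIs per droplet in deep barcodes whose leading hormone was another, which gave 132 UMIs for Ins2, 12 for Gcg and 2 for Sst, and which 4.98%, 4.38% and 3.20% of those background droplets exceeded by construction. By this rule 232 high-mt barcodes or 51.9% (47.2 to 56.6) were in the Ins2 class, 65 or 14.5% (11.4 to 18.2) in the Gcg class, 25 or 5.59% (3.65 to 8.15) in the Sst class, 11 above more than 1 background and 114 or 25.5% (21.5 to 29.8) above none. Among deep barcodes 520, 156, 41, 49 and 18 fell into the same classes.

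The hormone signal of the high-mt barcodes was weak, and the classes are ranges of a score and not cell types. Ins2 UMIs per barcode of the Ins2 class had a median of 257 (range 133 to 6315) in high-mt and 6006 (range 142 to 53229) in deep barcodes, and the ranges overlapped. Gcg UMIs of the Gcg class had a median of 49 (range 13 to 798) against 4503.5 (range 381 to 15566), and Sst UMIs of the Sst class a median of 11 (range 3 to 207) against 464 (range 26 to 3555). Within 20% of the Ins2 limit lay 76 high-mt barcodes below and 43 above it. Among 538 shallow barcodes of the library (under 600 UMIs and under 15% mt- UMIs), 82.0% exceeded the Ins2 limit, 19.3% the Gcg limit and 2.60% the Sst limit, against 54.4%, 16.1% and 6.49% of the high-mt barcodes. Whether a hormone above its limit came from the cell in the droplet or from free RNA was not tested for single barcodes.

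**Figure D2:**
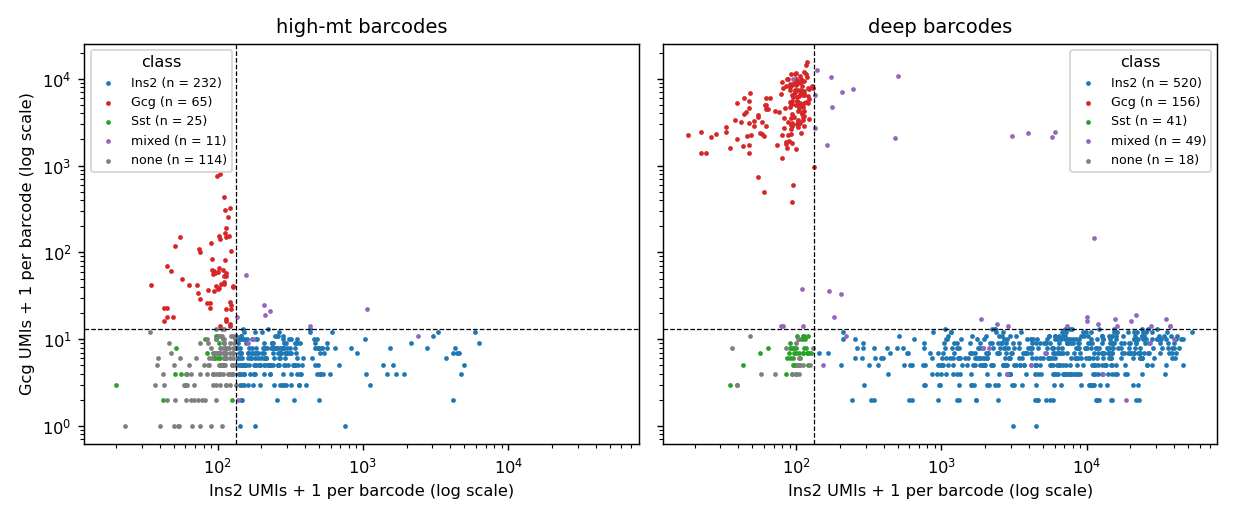
Ins2 UMIs + 1 against Gcg UMIs + 1 per barcode (both log scale) in high-mt and deep barcodes, with colours for the hormone class and dashed lines at the backgrounds of 132 and 12 UMIs. High-mt barcodes of the Ins2 class crowd just right of the line (median 257 Ins2 UMIs), while deep ones reach 53229.

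Genes that the hormone limits did not use also differed between the classes. Levels are given as CPM, the UMIs of a gene per 1000000 non-mitochondrial UMIs, from UMIs summed over the barcodes of a class. In high-mt barcodes Mafa, a transcription factor of mature beta cells, was at 1175 CPM (1090 to 1265) in the Ins2 class, 79.8 CPM (41.2 to 139) in the Gcg class and 16.9 CPM (0.428 to 94.3) in the Sst class. Irx2, an alpha cell factor, had 16 UMIs or 106 CPM (60.8 to 173) in the Gcg class, 2 UMIs or 13.6 CPM (1.64 to 49.1) in the hormone-negative class and 0 UMIs in the Ins2 and Sst classes, which allows up to 4.99 and 50.7 CPM there. Hhex, the delta cell factor, was at 321 CPM (194 to 502) in the Sst class and at 0 UMIs in the Ins2 and Gcg classes. Each factor was thus highest in the class of its own cell type, and Mafa was also counted, at a lower level, in the other classes.

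Levels of these factors were close to or above those of the deep barcodes of the same class. Irx2 was at 115 CPM (104 to 127) in deep barcodes of the Gcg class, Hhex at 360 CPM (316 to 407) in those of the Sst class and Mafa at 378 CPM (368 to 388) in those of the Ins2 class. Ptprz1, a receptor phosphatase found in delta cells, was at 254 CPM (142 to 419) and 106 CPM (83.2 to 133) in the Sst class and at 0 UMIs in the high-mt barcodes of the other hormone classes. Irx2, Hhex and Ptprz1 fall outside the rule for named genes and were chosen after their values were seen.

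The 114 hormone-negative high-mt barcodes were shallower, with a median of 1551.5 UMIs, and carried factors of more than 1 cell type. Mafa was at 312 CPM (229 to 417), Mlxipl at 815 CPM (676 to 974) and Hhex at 88.3 CPM (47.0 to 151) in them. Nkx6-1, a beta cell factor, had 115 CPM (67.3 to 185) there, while it had 213 CPM (177 to 253) in the high-mt Ins2 class and 26.6 CPM (7.25 to 68.1) in the Gcg class. Their Ins2, at a mean of 90.9 UMIs per droplet, was at the level of deep barcodes of the Gcg class, which held 85.3. The class rule limited both to at most 132 Ins2 UMIs per barcode.

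**Figure D3:**
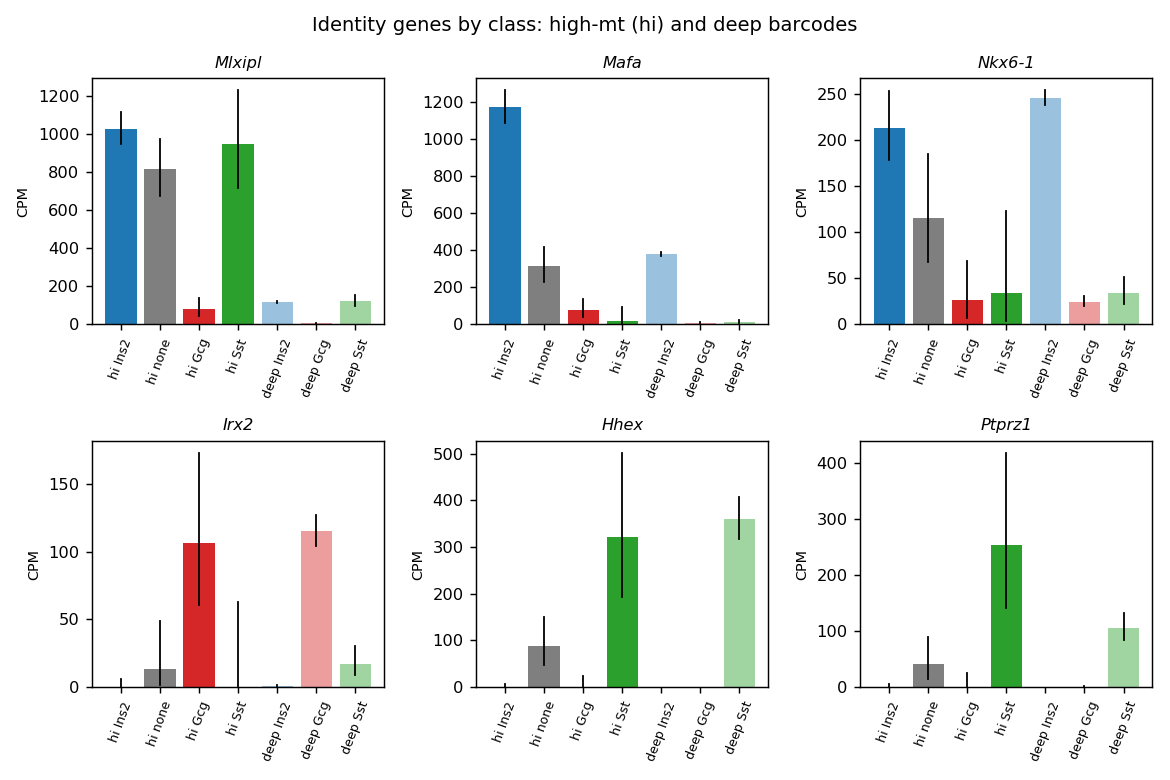
Levels (CPM without mt- genes, linear scale from 0) of 6 identity genes from summed UMIs, in high-mt (hi) barcodes of the Ins2, hormone-negative (none), Gcg and Sst classes and in deep barcodes of the 3 hormone classes. Error bars are 95% exact Poisson intervals, and Irx2 is highest in the Gcg class, at 106 CPM in high-mt and 115 CPM in deep barcodes.

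For each class, UMIs were summed over the high-mt and over the deep barcodes, mt- genes were left out of the totals and the ratio of the CPM was taken. High-mt barcodes of the Ins2 class held 601793 non-mitochondrial UMIs, which is 2594 per droplet, and deep barcodes 14007406 or 26937 per droplet, a difference of 10.4-fold. A gene that lost RNA like the average of all genes thus has a log2 ratio of CPM of 0 here, and a gene that lost none has a log2 ratio near 3.38. Of 8078 genes with at least 100 UMIs in both groups together and at least 3 in each, 2188 or 27.1% were at least 2-fold higher and 1643 or 20.3% at least 2-fold lower in high-mt barcodes, with a median log2 ratio of 0.16. That limit lets a gene that is low in deep barcodes pass only where it is relatively high in high-mt barcodes. With a limit on the UMIs expected in high-mt barcodes (at least 10, an alternative added after seeing the data) instead, 1252 of 5748 genes were higher and 1594 lower. With the 7 hormone genes left out of the totals the median moved to -0.23, and 1433 genes were higher and 2320 lower.

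Malat1 and Meg3, the most abundant nuclear long noncoding RNAs, were found at close to the same number of molecules per droplet in both groups. Malat1 (chromosome 19, positions 5795690 to 5802672) reached 227194 CPM (225992 to 228402) in high-mt and 23655 CPM (23574 to 23736) in deep barcodes of the Ins2 class, a log2 ratio of 3.26 (3.25 to 3.27). Per barcode, Malat1 had a median of 570.5 UMIs (range 1 to 1778) in high-mt and 582.5 UMIs (range 35 to 2492) in deep barcodes of that class, so the groups overlapped over most of their range. As a share of non-mitochondrial UMIs its median was 24.2% (range 0.122 to 44.0%) and 2.28% (range 0.221 to 11.6%).

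Of 12 nuclear long noncoding RNAs listed, 7 were in the table and all 7 passed the limit on counts and were at least 2-fold higher, against 27.1% of all genes compared, with a median log2 ratio of 3.23. This list was chosen with earlier results of these data known and holds Malat1, so the count is a description. Of all 102 long noncoding RNAs compared, 40 were higher and 11 lower. Meg3, an imprinted noncoding RNA (chromosome 12 from 109540996 to 109571729), had a median of 17 UMIs per high-mt barcode (range 0 to 48) and 18.5 per deep barcode (range 0 to 74), which is a log2 ratio of CPM of 3.23 (3.18 to 3.29). Kcnq1ot1, the antisense noncoding RNA that silences an imprinted domain, was at 1534 CPM (1436 to 1636) and 173 CPM (166 to 180), a log2 ratio of 3.15 (3.04 to 3.26). Snhg11, a small nucleolar RNA host gene, was at a log2 ratio of 3.34 (3.05 to 3.63) and Neat1, the scaffold of paraspeckles, at 1.93 (1.77 to 2.09). In all, these RNAs held 23.7% of the UMIs of high-mt and 2.48% of those of deep barcodes, but 614 and 667 UMIs per droplet. Neat1 and Airn, the antisense RNA of an imprinted locus, had fewer molecules in high-mt barcodes, with 1.62 against 4.42 UMIs per droplet for Neat1 and 0.116 against 0.238 for Airn, whose log2 ratio of CPM was 2.34 (1.68 to 2.95).

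Mlxipl and Ogt were the protein-coding genes of the rule with values close to this group. Mlxipl, which encodes the glucose-responsive factor ChREBP (chromosome 5, positions 135089890 to 135139768), had 1029 CPM (949 to 1113) in high-mt and 117 CPM (111 to 123) in deep barcodes of the Ins2 class, a log2 ratio of 3.14 (3.00 to 3.27). In UMIs per barcode it had a median of 2 in both groups, with ranges of 0 to 11 and 0 to 21. Ogt, the enzyme that adds O-GlcNAc to proteins (chromosome X, positions 101640011 to 101684351), had 633 CPM (571 to 700.0) and 80.2 CPM (75.6 to 85.0), a log2 ratio of 2.98 (2.81 to 3.15). Mgea5, which encodes the enzyme that removes O-GlcNAc, was at 88.1 CPM (66.0 to 115) and 50.3 CPM (46.7 to 54.2), so it lay under the 2-fold limit with a log2 ratio of 0.81.

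Transcripts of splicing factors and CLK kinases were relatively high as a group, at a lower level of retention. Of 35 members, 33 were at least 2-fold higher, against 27.1% of all genes compared, and none at least 2-fold lower, with a median log2 ratio of 1.89. Son, a scaffold of nuclear speckles (chromosome 16 from 91647824 to 91679192), had a median of 3 UMIs per high-mt barcode (range 0 to 13) and 7 per deep barcode (range 0 to 19), and its log2 ratio of CPM was 2.53 (2.42 to 2.63). Nktr, a cyclophilin with an SR domain, was at a log2 ratio of 2.38 (2.27 to 2.48), Rsrp1, an arginine and serine rich protein, at 2.17 and Rbm39, a splicing coactivator, at 1.60. Srrm2, a speckle scaffold, was at 1.42, and Ddx5, an RNA helicase, at 0.81 and so under the limit. Together these transcripts held 1.98% of UMIs in high-mt and 0.486% in deep barcodes, and 51.2 and 131 UMIs per droplet.

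Chromatin regulators followed, with 26 of 33 measured members at least 2-fold higher, none at least 2-fold lower and a median log2 ratio of 1.54. Ankrd11, a chromatin cofactor, was at 1.71, Atrx, a remodeller of heterochromatin, at 1.63, Bptf, the large subunit of the NuRF remodelling complex, at 1.58 and the methyltransferase Ash1l at 1.40. Smarca5, the ATPase of ISWI complexes, was the lowest member of the list at -0.75. Among the islet transcription factors 7 of 17 measured were at least 2-fold higher and 1 lower, against 27.1% and 20.3% of all genes compared: Pax6 was at 2.00, Mafa at 1.64, Meis2 at 1.55 and Isl1 at 1.21, while Nkx6-1 was at -0.21. Insm1, a factor of endocrine differentiation, was the 1 that was lower. In the list of glucose sensing and beta cell function, Abcc8, the sulfonylurea receptor of the potassium channel, was at 1.89, and 6 of 18 members were higher and 3 lower, which is near the shares over all genes.

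The comparison barcodes mattered for the size of these ratios. Against the 84 Ins2-class barcodes with under 15% mt- UMIs and 2000 to 8000 UMIs, the median log2 ratio was 1.12 over 5 nuclear long noncoding RNAs (3 at least 2-fold higher), 0.93 over 34 splicing factors and CLK kinases (12 higher) and 0.88 over 18 chromatin regulators (5 higher). Of all low-mt barcodes in that range, 41 of 67 with 2000 to 4000 UMIs and 18 of 75 with 4000 to 8000 UMIs carried 10% or more of their non-mitochondrial UMIs on Malat1.

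Messenger RNAs of cytosolic ribosomal proteins were relatively low in high-mt barcodes. Of 82 cytosolic ribosomal protein genes, 79 were at least 2-fold lower in high-mt barcodes of the Ins2 class, against 20.3% of all genes compared, and none was at least 2-fold higher, with a median log2 ratio of -1.94. Per barcode these transcripts had a median of 54 UMIs (range 17 to 376) in high-mt and 2186 UMIs (range 55 to 4829) in deep barcodes, and the ranges overlapped. As a share of the non-mitochondrial UMIs they had a median of 2.25% in high-mt and 9.42% in deep barcodes. Reads of ribosomal protein genes, Eef1a1 and other genes with processed pseudogenes may have been split or lost in counting, in both groups alike. Rpl10, a protein of the large ribosomal subunit, was at a log2 ratio of -2.37, Rpl41 at -2.11 and Rps24, of the small subunit, at -1.94.

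Other abundant cytosolic messenger RNAs were at a like level. In the list of cytosolic translation and cytoskeleton genes, 22 of 26 members were at least 2-fold lower, against 20.3% of all genes compared. None was higher and the median was -2.06. Eef1a1, the elongation factor that brings transfer RNA to the ribosome, had a median of 1 UMI per high-mt barcode (range 0 to 13) and 66 per deep barcode (range 1 to 177), a log2 ratio of CPM of -2.30 (-2.46 to -2.14). Tpt1, a translationally controlled protein, was at -2.28 and the cytoplasmic actin gene Actg1 at -2.16. The ferritin subunit genes Ftl1 and Fth1 were at -2.60 and -1.94.

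Nuclear-encoded transcripts for mitochondrial proteins were relatively low in high-mt barcodes. The mt- share chose these barcodes, so the level of mitochondrially encoded transcripts is only a description beside this. Of 77 measured subunits of oxidative phosphorylation, 69 were at least 2-fold lower, against 20.3% of all genes compared, and none was higher. Their median log2 ratio was -1.90, with 14.6 UMIs per droplet in high-mt and 496 in deep barcodes. Cox4i1 and Cox8a, subunits of cytochrome c oxidase, were at -1.51 and -1.64. In the Ins2 class mt-Co1 of the same enzyme, which counts towards the mt- share, held 319 UMIs per high-mt and 274 per deep barcode. Atp5g2, a subunit of the ATP synthase ring, was at -2.23. Of 72 mitochondrial ribosomal protein genes, 44 were at least 2-fold lower, against the same 20.3%, and none was higher, with a median of -1.37. Mrpl30 was at -2.18 and Mrps33 at -2.29.

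Transcripts of secretory granule proteins, which are translated at the endoplasmic reticulum, were spread around the average gene by gene but were lower when summed. Together they held 3.64% of UMIs in high-mt and 7.60% in deep barcodes of the Ins2 class, a log2 ratio of -1.06 (-1.08 to -1.04). Of 19 measured secretory granule genes, 3 were at least 2-fold higher and 4 lower, against 27.1% and 20.3% of all genes compared. Their median log2 ratio was -0.00, and this median changed sign with the processing (0.24 with an mt- limit of 10%, 0.01 against barcodes of 2000 to 8000 UMIs and 0.06 with the hormone background at the 99th percentile). Chga, chromogranin A of the granule core, was at 0.47 (0.42 to 0.53) with 4817 CPM in high-mt and 3469 CPM in deep barcodes, and Scg2, a secretogranin, was at -0.24. Ins2 itself was at 213151 CPM and 356605 CPM, a log2 ratio of -0.74, and Ins1 at -0.88, values that the hormone limit of the class bears on. Iapp, the amylin peptide released with insulin, was much lower at -2.08, with 21.4 UMIs per droplet in high-mt and 941 in deep barcodes.

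Genes of the endoplasmic reticulum itself split by member. In the list of its chaperones and translocation factors 2 of 31 were at least 2-fold higher and 11 lower, against 27.1% and 20.3% of all genes compared. The median was -0.49. The lumenal chaperones Hspa5 (BiP), Hsp90b1 and Calr were at -0.37, -0.33 and 0.00, and the disulfide isomerase Pdia3 at -1.09. The small translocon subunits Sec61b and Sec61g were at -1.73 and -2.13, which is the level of the ribosomal protein genes. Sec61a1, the large channel subunit, which was chosen after its values were seen, was at 2.08.

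In the Ins2 class, genes of the integrated stress response and heat shock were relatively low in high-mt barcodes, while immediate early genes were mixed. Of 11 measured genes of the integrated stress response, 7 were at least 2-fold lower and none higher, against 20.3% lower and 27.1% higher over all genes compared, with a median of -1.33. Ddit3, which encodes CHOP, was at 550 CPM (492 to 613) in high-mt and 2116 CPM (2092 to 2140) in deep barcodes, a log2 ratio of -1.94, and its partner Atf4 was at -1.33. Among p53 targets 3 of 8 were lower and none higher: Cdkn1a, the cell cycle inhibitor, was at -1.80, Ccng1 at -1.98 and Phlda3 at -2.50, while Mdm2 was at -0.10. In the heat shock list 5 of 6 were lower. Immediate early genes, whose transcripts are made fast and are short-lived, had 5 of 9 members higher and 1 lower, with Btg2 at 1.58, Ier2 at 1.16, Junb at 1.09 and Jund at -1.22. In the Gcg class 2 of 10 integrated stress response genes were lower, against 22% of all genes compared, with a median of -0.76. The Sst class had 1 of 6 lower, against 47.9%, with a median of -0.44. Of the heat shock list 3 of 4 were lower in the Gcg class and 3 of 3 in the Sst class.

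**Figure D4:**
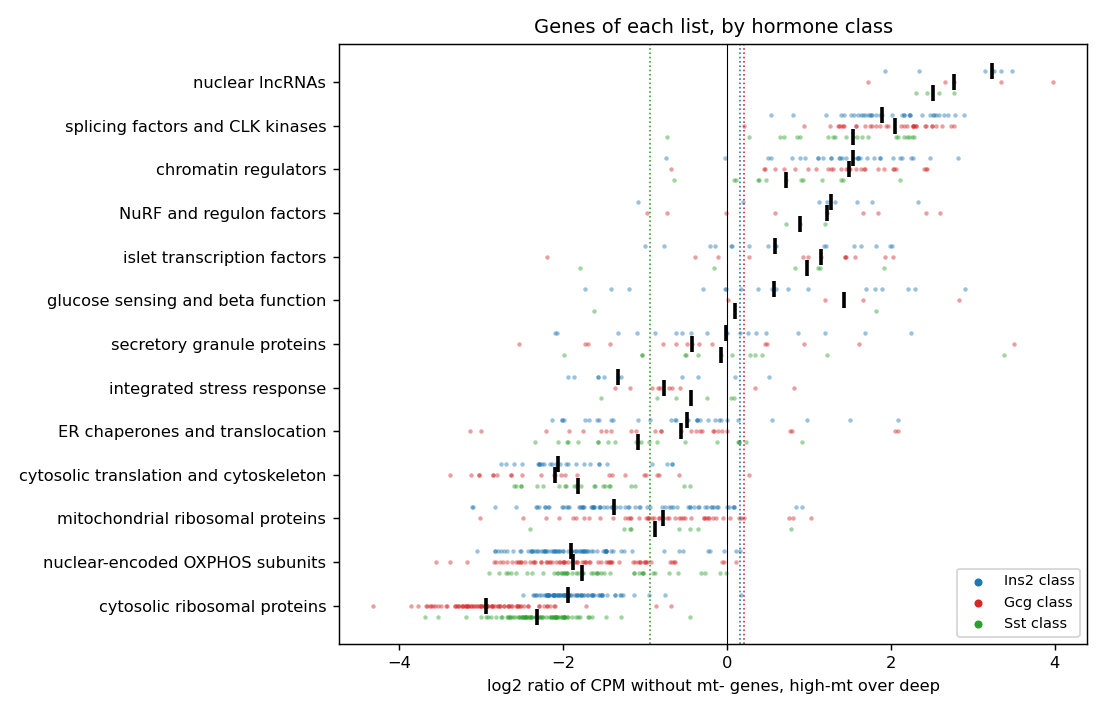
Log2 ratio of CPM without mt- genes, high-mt over deep barcodes, for each compared gene (dots) of 13 gene lists in the Ins2, Gcg and Sst classes, with list medians as black bars and the median over all genes compared of each class as a dotted line (0.16, 0.21 and -0.93). Lists run from nuclear long noncoding RNAs (medians 3.23, 2.77 and 2.51) at the top to cytosolic ribosomal proteins (medians -1.94, -2.94 and -2.31) at the bottom.

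The 10 genes with the highest log2 ratios in the Ins2 class were of low counts and largely little described. Gm45486, a predicted gene, led with 44 UMIs in high-mt and 78 in deep barcodes, a log2 ratio of 3.71 (3.15 to 4.27). Mirg, a noncoding RNA that hosts microRNAs in the imprinted region of Meg3 (chromosome 12 from 109734981 to 109749458), was at 3.48 (2.95 to 3.99). Further genes were Gm26699 at 3.57, 5330434G04Rik at 3.54, AC121960.2 at 3.50, Col6a6, a collagen chain, at 3.40, the phosphodiesterase gene Pde10a at 3.35, AC149090.1 at 3.34 and Sst at 3.41. The intervals of these genes overlap and include the log2 difference in depth of 3.38, so no order among them can be read.

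Sst is not a gene of the Ins2 class, and neither is Gcg, which was at 3.27. There Gcg held 5.56 UMIs per droplet in high-mt and 5.99 in deep barcodes, and Sst 0.246 and 0.240. The class rule itself allowed at most 12 Gcg and 2 Sst UMIs per barcode in both groups, which bears on these values. A constant amount per droplet gives the same log2 ratio as full retention. The shallow barcodes held a mean of 5.93 Malat1, 12.3 Gcg and 0.600 Sst UMIs per droplet, and the part of free RNA in these ratios was not tested. Gm42418, which overlaps a ribosomal RNA repeat, was at a log2 ratio of 2.67 with 43.2 and 70.4 UMIs per droplet.

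At the other end, the 10 lowest genes of the Ins2 class rested on 3 to 9 UMIs in high-mt barcodes. Gstp1, a glutathione transferase (chromosome 19 from 4035411 to 4037912), was at 5 UMIs against 1463, a log2 ratio of -3.65 (-5.28 to -2.43). Bnip3, a mitophagy receptor (chromosome 7 from 138890836 to 138909506), was at -3.42 (-5.30 to -2.06), and Tomm5, of the mitochondrial import channel, at -3.21. Taf12, the partner of Taf4 in TFIID (chromosome 4 from 132274355 to 132293329), was at 3 UMIs against 594, a log2 ratio of -3.09 (-5.37 to -1.53). Banf1, a chromatin-binding protein, Tm2d1, the mitochondrial ribosomal protein genes Mrpl51 and Mrps18c, the nucleotide kinase gene Cmpk1 and Smim4 lay between -3.13 and -3.05. Genes with fewer than 3 UMIs in high-mt barcodes were not compared: there were 267 of them with 100 or more UMIs in both groups together.

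Taf4 itself had 7 UMIs in high-mt and 118 in deep barcodes of the Ins2 class, 11.6 CPM (4.68 to 24.0) and 8.42 CPM (6.97 to 10.1), a log2 ratio of 0.47 (-0.88 to 1.55). Of the 12 measured genes in the list of TFIID subunits, 2 were at least 2-fold higher and 3 lower, against 27.1% and 20.3% of all genes compared. At this depth no difference in Taf4 was detectable between the groups.

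The same groups of genes stood at the ends of the Gcg class. High-mt barcodes held 2313 and deep barcodes 21056 non-mitochondrial UMIs per droplet, a difference of 9.10-fold, and of 3563 genes compared 1102 or 30.9% were at least 2-fold higher and 785 or 22% lower, with a median of 0.21. With at least 10 UMIs expected, 341 of 1674 were higher and 722 lower. Malat1 was at 263637 CPM in high-mt and 25866 CPM in deep barcodes, a log2 ratio of 3.35 (3.33 to 3.37), and at 610 and 545 UMIs per droplet. All 5 measured nuclear long noncoding RNAs, 32 of 34 splicing factors and CLK kinases and 21 of 28 chromatin regulators were at least 2-fold higher, with medians of 2.77, 2.05 and 1.49. Snhg11 led at 3.99 (3.59 to 4.38), with 95 UMIs in 17 of 65 high-mt and 131 in 37 of 156 deep barcodes.

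For ribosomal protein genes the median ratio was lower in the Gcg class than in the Ins2 class, and its deep barcodes held more of these transcripts. Of 82 such genes 80 were at least 2-fold lower, against 22% of all genes compared in this class, and none was higher. Their median was -2.94, and they held 69.8 UMIs per droplet in high-mt and 4459 in deep barcodes. Rpl36a was lowest at -4.32 (-5.54 to -3.34), followed by Rpl13a, Rps16 and Rpl29 between -3.86 and -3.66. Of 70 oxidative phosphorylation subunits 59 were lower and none higher. Gcg was at 42362 CPM in high-mt and 242908 CPM in deep barcodes, a log2 ratio of -2.52 (-2.56 to -2.48), and Ttr, transthyretin made by alpha cells, was at -2.82. Among the alpha markers 5 of 11 were at least 2-fold higher and 4 lower, against 30.9% and 22% of all genes compared in this class. Slc7a2, an arginine transporter, was at 2.26 and the transcription factor gene Etv1 at 1.45.

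Ins2 and Ins1 showed log2 ratios of 3.31 and 3.51 in the Gcg class, but Ins2 held 93.0 UMIs per droplet in high-mt and 85.3 in deep barcodes. The class rule allowed at most 132 Ins2 UMIs per barcode in both groups, which bears on these values. Mlxipl was at 79.8 CPM (41.2 to 139) in high-mt and 6.09 CPM (3.72 to 9.40) in deep barcodes of this class. It was found in 6 of 65 and 16 of 156 barcodes, against 187 of 232 and 411 of 520 in the Ins2 class. Ogt was at a log2 ratio of 2.46 (1.86 to 3.02) and Son at 1.94 (1.63 to 2.24).

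In the Sst class, with 25 high-mt and 41 deep barcodes, only well-counted genes could be compared. Non-mitochondrial UMIs per droplet differed 7.20-fold, and of 955 genes 107 or 11.2% were at least 2-fold higher and 457 or 47.9% lower, with a median of -0.93. Malat1 was at 211199 CPM and 31023 CPM, a log2 ratio of 2.77 (2.74 to 2.80), and Mlxipl at 947 CPM (716 to 1230.2) and 123 CPM (98.5 to 152). All 4 measured nuclear long noncoding RNAs and 15 of 21 splicing factors and CLK kinases were higher, and 78 of 79 ribosomal protein and 39 of 47 oxidative phosphorylation genes lower. Sst was at -2.08, with 28.0 UMIs per droplet in high-mt and 852 in deep barcodes. Centred on its own median, the class had 244 genes higher and 189 lower, and the medians of the mitochondrial ribosomal, integrated stress response and granule lists then lay above 0.

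Over the 913 genes compared in all 3 classes, 86 were at least 2-fold higher in each, which is 63.7% of the higher genes of the Ins2 class, 53.1% of those of the Gcg class and 83.5% of those of the Sst class. At least 2-fold lower in each were 316, or 67.5%, 74.5% and 73.3%. Taken singly, the Ins2, Gcg and Sst classes had 135, 162 and 103 of the 913 genes higher and 468, 424 and 431 lower. Some overlap arises from these shares alone, and how far it exceeds them was not tested. The 5 genes that passed 2-fold in opposite directions in any pair of classes were Gcg, Ppy, Pyy, Rbp4 and Mettl26. The first 4 encode islet peptides or a carrier protein of endocrine cells and were low in the Gcg class (-2.52, -2.58, -2.49 and -2.44) but high in the Ins2 class. For Gcg the class rule bears on both values, since it set a lower limit in the Gcg class and an upper limit in the Ins2 class.

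Retention also differed by gene structure. Protein-coding genes of the Ins2 class were split into quartiles by their span on the genome from RefSeq (GRCm38.p6), which 8036 genes matched. The median log2 ratio was -0.70 in the shortest quartile (median span 5.63 kb), -0.05 and 0.39 in the next and 0.86 in the longest (median span 103 kb). In the longest quartile 44.3% of 1981 genes were at least 2-fold higher and 5.00% lower, against 11.0% and 41.2% of 1981 in the shortest. Without the ribosomal protein and oxidative phosphorylation lists the shortest quartile was at -0.57. In the Gcg class the medians were -0.91, -0.14, 0.45 and 1.23, and in the Sst class -1.86, -1.13, -0.89 and 0.25.

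Span and exonic length go together, and both moved with the ratio. Split at the medians of both, short genes with short exonic length were at -0.64 (n = 2596), short genes with long exonic length at 0.38 (n = 1015), long genes with short exonic length at -0.13 (n = 1015) and long genes with long exonic length at 0.86 (n = 2597). Among genes of unlike span and exonic length, the ratio followed the exonic length. The 102 noncoding genes compared had a median of 0.70, with 40 at least 2-fold higher and 11 lower, against 27.1% and 20.3% of all genes compared. Some of the higher ones, such as 5330434G04Rik with 68 UMIs in deep barcodes, passed the limit of 100 UMIs only through the high-mt group. They were not alike: Lncpint was at 2.76 and AY036118, which overlaps a ribosomal RNA repeat, at 3.00, but Snhg6, a host gene of small nucleolar RNAs, at -2.03. These 3 were chosen after their values were seen, and genes are not independent replicates.

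**Figure D5:**
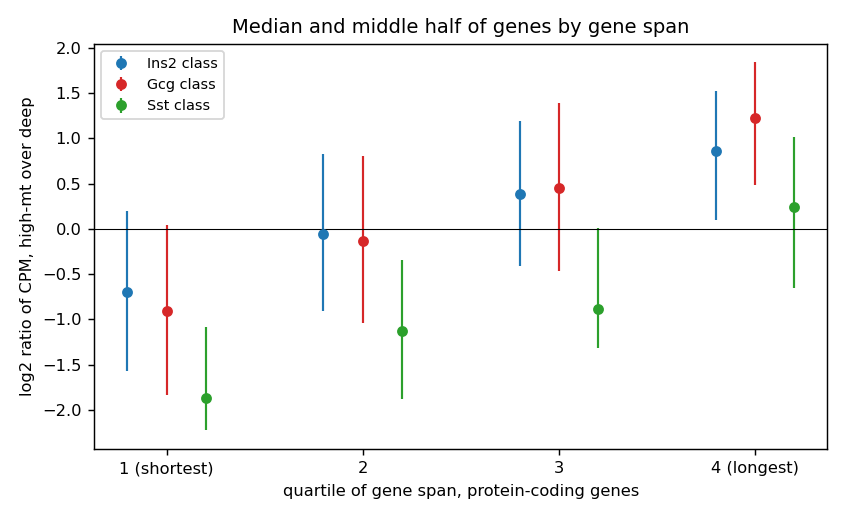
Log2 ratio of CPM, high-mt over deep barcodes, by quartile of the genomic span of protein-coding genes in the Ins2, Gcg and Sst classes. Dots are medians over genes and lines the 25th to 75th percentile, and medians run from -0.70 to 0.86 in the Ins2 class.

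After each barcode was thinned to 1000 non-mitochondrial UMIs, the number of detected genes no longer set the groups apart. It had a median of 512.5 in 216 high-mt barcodes of the Ins2 class (16 shallower ones left out) and 518 in 520 deep ones, against 1039.5 and 4836.5 before thinning. A Meg3 UMI was found in 99.5% (97.4 to 99.99) of high-mt and 52.1% (47.7 to 56.5) of deep barcodes, and a Mlxipl UMI in 60.6% (53.8 to 67.2) and 11.5% (8.92 to 14.6), against 6.78% (1.88 to 16.5) in high-mt barcodes of the Gcg class. Eef1a1 went the other way, with 39.8% (33.2 to 46.7) and 89.2% (86.2 to 91.8). Chga was at 93.1% (88.8 to 96.1) and 93.3% (90.8 to 95.3), intervals that overlap. Without thinning the shares were 96.6% and 99.6% for Meg3, 80.6% and 79.0% for Mlxipl and 69.8% and 100% for Eef1a1.

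Markers of other cell types were at or near the counting limit in high-mt barcodes of the Ins2 class. Of 10 acinar, 9 endothelial, 13 macrophage, 8 mesenchymal and 2 lymphocyte markers in the table, 3 had enough UMIs to be compared. Those lists summed to 0.198, 0.134, 0.0819, 0.0172 and 0.0129 UMIs per droplet in high-mt and 0.452, 1.47, 0.410, 0.00385 and 0.188 in deep barcodes. The ductal markers Krt8, Krt18 and Spp1 were at -1.84, -1.42 and -0.44, and the 2 markers of pancreatic polypeptide cells, Ppy and Pyy, at 1.19 and 1.16. The part of such cells in the results was not tested.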

How the data were processed

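Per the labels, the authors demultiplexed reads with bcl2fastq 2.17.1.14 and made UMI counts per gene and cell barcode with Cell Ranger 3.1 on the mm10 genome. Seurat 3.1.4 is also named. The deposited tables hold raw UMI counts, not normalized, for 1 library each of WT, 1 week and 5 weeks. Only the 1-week table held high-mt barcodes, so a planned comparison with 5 weeks could not be made.

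UMIs were summed over the barcodes of a class, mt- genes were left out of the totals, and genes needed at least 100 UMIs in both groups together and 3 in each. Python 3.11.15 with numpy 2.4.6, scipy 1.17.1, pandas 2.3.3 and matplotlib 3.10.9 gave the log2 ratios of CPM with 95% exact intervals, and a gene was counted as higher or lower from 2-fold on. These intervals were checked on simulated counts drawn with fixed proportions, which is the model that the intervals assume. That check held no spread between barcodes. There is no test and no p-value, since cells of 1 library are not replicates. UMI totals per barcode, given with each group, set the precision, and where a level is 0 the upper limit printed is 3 counts of the total. The study's methods name a removal of doublets for WT. No doublet caller was run here, and barcodes above more than 1 hormone background were kept apart as mixed.

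Genes were named by rule: 10 genes at each end in the Ins2 class and 5 in the others, the marker genes, the hormones, Taf4 and up to 6 members of each list with the most UMIs. Some genes that this rule selects are not reported here. The members and gene lists were chosen with earlier results of these data known. Alternatives changed the mt- limit, the comparison barcodes, the hormone background, the depth, the filter, the totals and the centring. Gene spans came from RefSeq and exonic lengths from another annotation of an earlier build.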

Additional observations from a re-analysis of the deposited data

How the results depend on the processing

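Of the 9 gene lists of the Ins2 class that were recomputed, all but the granule list kept the direction of their median under each alternative run. For the mitochondrial ribosomal list this says little in 2 runs. Its median rested on 1 gene, at -0.06, against barcodes of 2000 to 8000 UMIs and on 2 genes after thinning. The cause of the changes below was not tested. With an mt- limit of 10%, 28 mitochondrial ribosomal, 2 granule and 6 endoplasmic reticulum genes were at least 2-fold lower in the Ins2 class. Against barcodes of 2000 to 8000 UMIs, 183 genes were higher and 267 lower in the Ins2 class and 59 and 126 in the Gcg class, with 3 nuclear long noncoding RNAs, 12 splicing and 5 chromatin genes higher, and 30 oxidative phosphorylation, 0 mitochondrial ribosomal and 0 granule genes lower, where fewer genes could be tested. With the hormone background at the 99th percentile the Ins2, Gcg, Sst and hormone-negative shares were 27.7%, 10.5%, 0.671% and 61.1%, and at the 90th percentile the hormone-negative share was 20.1%. With only high-mt barcodes from 2000 UMIs, the Ins2 share was 60.6% and the hormone-negative share 13.98%. Thinned to 1000 UMIs, 799, 174 and 54 genes could be compared in the Ins2, Gcg and Sst classes. Of these, 156 were higher and 427 lower in the Ins2 class, 17 and 141 in the Gcg class and 5 and 42 in the Sst class. In the thinned Ins2 class 4 of 4 nuclear long noncoding RNAs and 9 of 9 chromatin genes were higher, with medians of 3.09 and 1.70. Both of the 2 mitochondrial ribosomal genes compared were lower, with a median of -2.61. With the shallow barcodes' RNA subtracted, 52 of the 53 ribosomal protein genes still compared in the Ins2 class were lower. Their median was -4.09. With hormone genes out of the totals, 1433 genes of the Ins2 class were higher. Centred on the median, 244 genes of the Sst class were higher and 189 lower. With 20 UMIs together and still 3 in each group, 3170 genes of the Gcg class were higher and 785 lower, and 1148 and 523 of the Sst class, whose median over all genes turned from -0.93 to 0.52. With 10 UMIs expected, chosen after seeing the data, 1252, 341 and 69 genes were higher in the Ins2, Gcg and Sst classes. Another 206 summary values were labelled unchanged, by a set fold limit against the main run for counts and by the counting interval for shares. Of the values of named genes, 2134 stayed within their counting intervals and 504 did not, and no named gene past 2-fold changed sign. The Sst class gave no ratios against barcodes of 2000 to 8000 UMIs or at the 99th percentile. No paired analysis was possible because each condition has 1 library and no test was made.

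With 1 library of 2 mice, the spread between animals is unknown, and the state of the cells and the handling of this library cannot be told apart. Hormone UMIs near the background make single class assignments uncertain. Genes with few UMIs in high-mt barcodes have wide intervals, and those under 3 were not measured.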

Other observations

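Malat1-rich barcodes were also found under the 15% mt- limit. Of the low-mt barcodes with 1000 to 8000 UMIs, 95 carried 10% or more of their non-mitochondrial UMIs on Malat1, a limit chosen after seeing the values, and 133 carried less. The 95 had medians of 2495 UMIs, 7.80% mt- UMIs and 28.7% Malat1, and over their summed UMIs held 2.12% splicing factor and CLK kinase transcripts and 2.93% ribosomal protein transcripts. The 133 others had medians of 3231 UMIs, 2.52% mt- UMIs and 1.00% Malat1, and summed shares of 0.571% and 15.1% for these lists. The high-mt barcodes had a median of 21.8% Malat1 and summed shares of 2.11% and 2.62%. By hormone, 45 of the 95 exceeded the Ins2 background alone, 13 the Gcg background, 2 the Sst background, 3 more than 1 and 32 none.

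In turn, 86 of the 447 high-mt barcodes carried less than 10% Malat1. They were shallower, with a median of 1128 UMIs against 3198 in the other 361, and had a median of 5.80% Malat1 and summed shares of 1.10% splicing factor and CLK kinase and 3.23% ribosomal protein transcripts. Their summed ribosomal share was thus close to the 2.51% of the Malat1-rich high-mt barcodes although their Malat1 share was not. The 784 deep barcodes held 3 with 10% or more Malat1, of which 2 exceeded more than 1 hormone background.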
